A study of Mus musculus with 34 samples.

Results

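The Igf2bp genes encode RNA-binding proteins of the insulin-like growth factor 2 mRNA-binding family. The 3 members, Igf2bp1, Igf2bp2 and Igf2bp3, were taken by symbol from 58071 gene symbols listed over 3 stages of mouse preimplantation development. The family was chosen because Igf2bp3 was far lower in R442Q than in WT late 2-cell embryos, so the genotype values of the late 2-cell stage are given as a description without a test. All 3 members passed the filter on low values at each stage, among 12420 genes tested in zygotes, 13883 in late 2-cell embryos and 11297 in blastocysts.

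IGF2BP proteins bind RNA through RNA recognition motifs and KH domains. They hold bound mRNAs in ribonucleoprotein granules, where the mRNAs are protected from decay and their translation and transport are controlled. They are also known as readers of N6-methyladenosine (m6A), a methyl mark on mRNA. The proteins are most abundant in embryonic and tumour cells, and their mRNAs are known targets of the let-7 microRNAs, which LIN28 keeps low in early embryos and stem cells. IGF2BP2 is stored in the oocyte and is needed for the early divisions of the embryo.

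Single embryos were sequenced after injection of early zygotes with mRNA for either WT CHK1 or the CHK1 mutant R442Q; CHK1 is the kinase that stops dividing cells when their DNA is damaged, and the study asked how perturbing this checkpoint alters preimplantation transcriptomes. The untreated groups were 5 WT and 6 R442Q zygotes and 4 WT and 5 R442Q late 2-cell embryos. The 7 WT and 7 R442Q blastocysts had all been cultured with a CHK1 inhibitor at 30 nM. WT therefore means injected with WT mRNA at every stage, and the inhibitor is shared by both blastocyst groups, so stage and inhibitor cannot be told apart in any value set from blastocysts against the earlier stages. The embryos carry a transient overexpression on top of their own Chek1 gene, and strain, parent and collection day were not given in the labels.

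Total counts were 7183632 to 11296522 per zygote and 5727956 to 8916343 per late 2-cell embryo, while blastocysts were available here as FPKM (fragments scaled to transcript length and library size), so their depth in counts is not known. Chek1, whose mRNA was injected in both groups, was at 4593 to 8653 CPM in WT and 5597 to 7171 CPM in R442Q zygotes, and at 396 to 675 and 259 to 720 CPM in late 2-cell embryos; since both groups received it, its level does not check the genotype labels. Stage markers matched the stage labels. The summed level of 12 oocyte and zygote markers was 9104 to 12629 CPM (counts scaled to library size) over all zygotes and 1515 to 4678 CPM over all late 2-cell embryos. All 10 trophectoderm, 8 epiblast and 8 primitive endoderm markers were detected in blastocysts. Of 12 cumulus cell markers, whose cells surround the oocyte, 3 were tested in zygotes and 2 in late 2-cell embryos, with 0 called at either stage by edgeR or DESeq2 (1 and 0 at an unadjusted p under 0.05 by edgeR). Their summed level was 101 to 137 CPM in WT and 79.5 to 111 CPM in R442Q zygotes, with Amh at 0. Most of it was Bmpr1b, at 113 ± 13.2 CPM in WT and 84.6 ± 12.2 CPM in R442Q zygotes. The other tested markers were Fshr, at 1.47 and 1.27 CPM, and Has2, at 1.60 and 1.47 CPM. In late 2-cell embryos the sum was 21.8 to 30.1 CPM in WT and 10.5 to 54.8 CPM in R442Q, with Fshr and Inha at 0. Each embryo is 1 library, and nothing says which embryos shared parents or a day, so the p-values measure the spread between these embryos.

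The members lie on 3 chromosomes, all on the minus strand (GRCm38 coordinates from GENCODE M21). Igf2bp1 (ENSMUSG00000013415.9) spans chr11:95957163-96005940 and has 5 annotated transcripts. Igf2bp2 (ENSMUSG00000033581.17) spans chr16:22059009-22163299 and has 11. Igf2bp3 (ENSMUSG00000029814.10) spans chr6:49085223-49214957 and has 5, of which the full coding transcript is 4345 bases long with a 3′ UTR of 2119 bases. Igf2bp1 shared 0.44% of its 50-base stretches with other annotated genes, through Mir3063, and Igf2bp2 and Igf2bp3 shared 0, so no member held a stretch of that length found in another. At its 3′ end Igf2bp3 overlaps 1529 bases of Malsu1 on the opposite strand, and whether the authors' counting used strand is not given in the sources used here.

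Because let-7 is the known microRNA regulator of this family, its sequence and its matches in the 3 mRNAs are shown. Of the mouse let-7 microRNAs given by RefSeq, let-7a, b, c, d, e, f, g, i and k share 1 seed (bases 2 to 8, in capitals), and let-7j differs from them in its seed. The common form is represented by let-7a and the other by let-7j.
mmu-let-7a-5p: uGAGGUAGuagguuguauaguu
mmu-let-7j: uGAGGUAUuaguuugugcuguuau
The DNA letters pairing with the common seed, CTACCTC, were searched on the transcript strand of each annotated 3′ UTR. The match, in capitals, occurred 4 times in the main Igf2bp1 transcript and once each in those of Igf2bp2 and Igf2bp3, shown 5′ to 3′ on the minus strand of GRCm38.
Igf2bp1 site at chr11:95961775-95961799: ctgtgcgaagtaaaCTACCTCaagg
Igf2bp1 site at chr11:95959354-95959378: agcagtgctattaaCTACCTCagcc
Igf2bp1 site at chr11:95958760-95958784: tataaatggatgaaCTACCTCagtc
Igf2bp1 site at chr11:95958137-95958161: cttttggttttaatCTACCTCttag
Igf2bp2 site at chr16:22059470-22059494: cacacaaataaaagCTACCTCaggt
Igf2bp3 site at chr6:49086784-49086808: gcatttttactcaaCTACCTCaggt
The same letters occurred in the 3′ UTR of 9.02% of 21022 coding genes, and of 15.2% of the 10243 coding genes whose 3′ UTR has at least 1000 bases. A match is a description of sequence, and no microRNA was measured in these libraries.

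**Figure D1:**
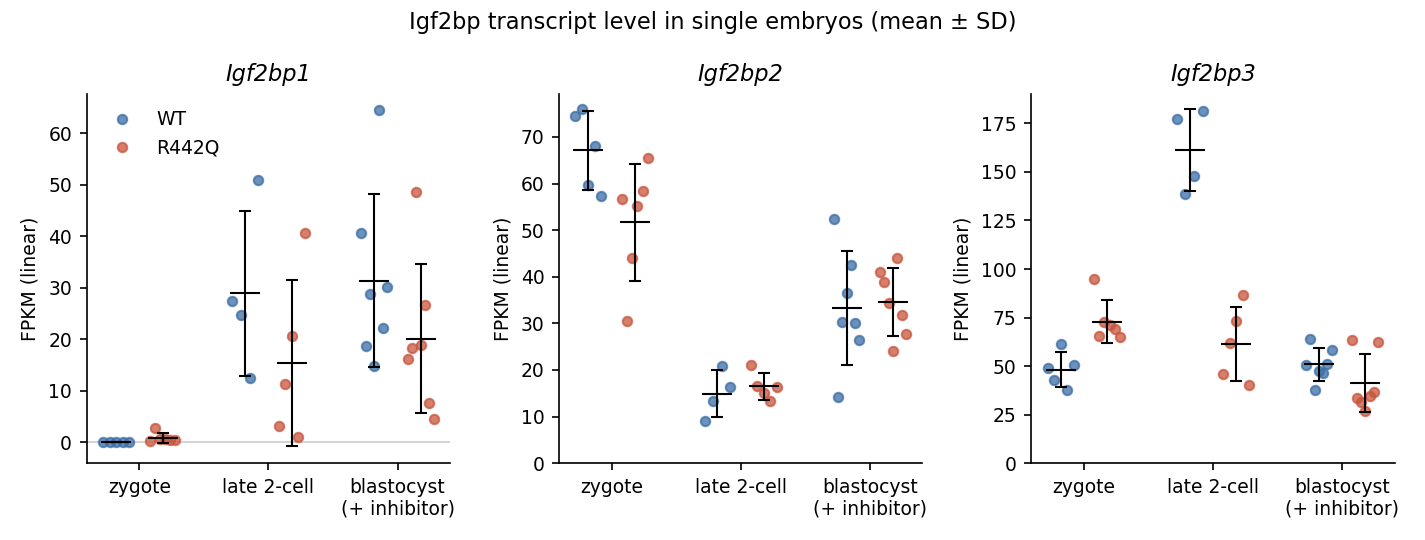
FPKM of Igf2bp1, Igf2bp2 and Igf2bp3 (linear vertical axes, one scale per gene) in each of 34 single embryos by stage; points are embryos, blue WT and red R442Q, and bars are mean ± SD. Igf2bp3 in the 4 WT late 2-cell embryos (138 to 181) lies above all 5 R442Q embryos (40.5 to 86.6), Igf2bp1 is near 0 in zygotes, and Igf2bp2 is highest in zygotes.

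In WT embryos the makeup of the family differed between the stages. Zygotes held Igf2bp2 and Igf2bp3, and Igf2bp1 was close to 0. Late 2-cell embryos held mostly Igf2bp3, with Igf2bp1 now present and Igf2bp2 lower. Blastocysts held all 3 at levels that overlapped. The mean FPKM of Igf2bp1, the member best known from fetal tissue, was 0.026 ± 0.033 (SD, n = 5) in WT zygotes, 28.9 ± 16.0 (SD, n = 4) at the late 2-cell stage and 31.4 ± 16.9 (SD, n = 7) in blastocysts. That of Igf2bp2 was 67.1 ± 8.45, 14.9 ± 5.01 and 33.2 ± 12.2 at the same stages and numbers of embryos. That of Igf2bp3 was 48.2 ± 8.99, 161 ± 21.3 and 50.9 ± 8.47. FPKM is a level per transcript length, so comparing the members on it within a stage rests on the length used for each. That length, taken from counts and FPKM (the implied length, described below), varied. In WT late 2-cell embryos it was 1722 ± 455 bases for Igf2bp1 and 3195 ± 160 bases for Igf2bp2. Their counts there were close, at 44.6 ± 13.7 and 47.1 ± 13.7 CPM, so the higher FPKM of Igf2bp1 came with its shorter length. The 3 tables were normalised separately, so levels set across stages rest on the authors' scaling.

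Within WT zygotes the order was Igf2bp2, then Igf2bp3, then Igf2bp1, and the lowest Igf2bp2 value (57.3) was below the highest Igf2bp3 value (61.3), so these neighbours overlapped. Igf2bp1 was apart from both. Within WT late 2-cell embryos Igf2bp3 (138 to 181) stood above Igf2bp1 (12.6 to 50.9), which overlapped Igf2bp2 (9.05 to 20.9). In WT blastocysts the ranges were 37.7 to 64.0 for Igf2bp3, 14.2 to 52.5 for Igf2bp2 and 14.8 to 64.5 for Igf2bp1, and all neighbours overlapped.

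The same pattern was seen as shares of the family's summed FPKM in each embryo. Igf2bp2 made up 58.3% ± 6.72 (SD) of the sum in WT zygotes, 7.48% ± 3.04 in WT late 2-cell embryos and 28.4% ± 7.81 in WT blastocysts. Igf2bp3 made up 41.7% ± 6.74, 79.0% ± 4.44 and 45.6% ± 11.9. In R442Q zygotes the order of these members was the other way round, with Igf2bp3 at 58.4% ± 6.23 and Igf2bp2 at 40.8% ± 6.87. The shares of Igf2bp3 in WT (35.5% to 50.7%) and R442Q (49.7% to 66.4%) zygotes met at 1 end. In R442Q late 2-cell embryos Igf2bp3 held 65.8% ± 15.8, still the largest mean share, with a range of 41.5% to 85.8%. That share rests on a mean implied length of 1252 bases for Igf2bp3, against 2363 bases in WT. By counts the R442Q means were 75.6 CPM for Igf2bp3, 49.8 CPM for Igf2bp2 and 29.4 CPM for Igf2bp1. Igf2bp1 ranged there from 0.992% to 41.7% of the sum. The lowest share was that of replicate 4, at 7.87 CPM with an implied length of 7871 bases. Replicate 1 had fewer counts, at 6.73 CPM with 2185 bases, and a share of 4.41%.

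**Figure D2:**
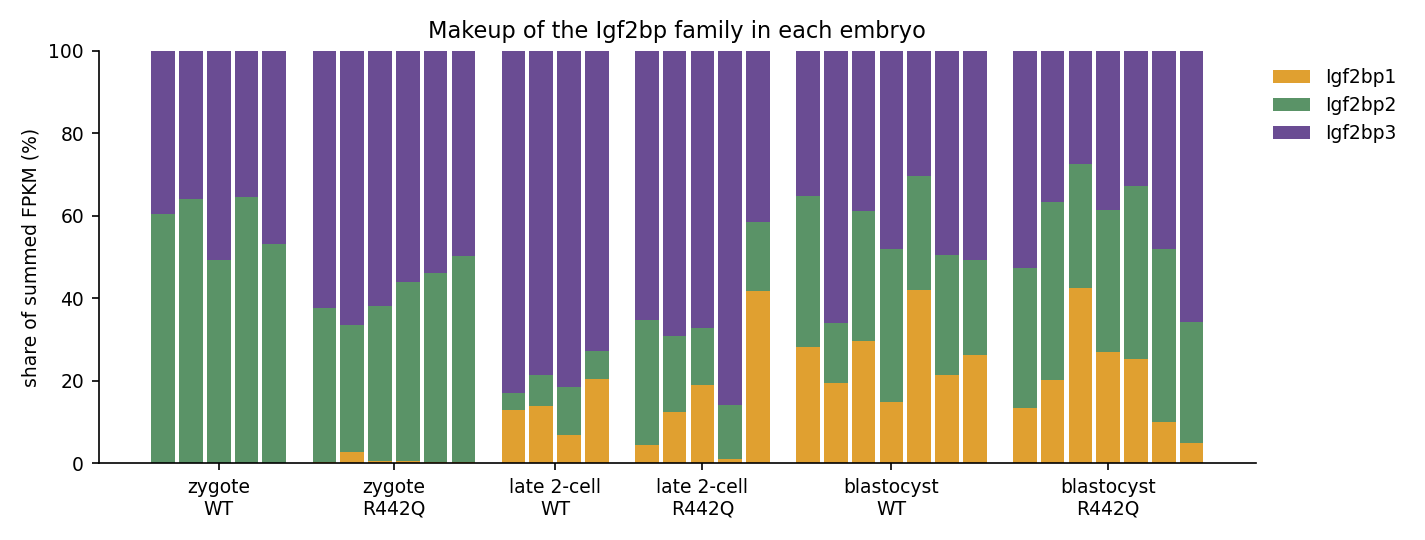
Share of each member in the summed FPKM of the family (vertical axis, percent), one stacked bar per embryo, grouped by stage and genotype. Igf2bp3 fills 72.9% to 82.9% of the bars of WT late 2-cell embryos, and Igf2bp1 is almost absent from the zygotes. The shares rest on the transcript lengths used for the FPKM.

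Igf2bp3 was higher in R442Q than in WT zygotes, the opposite of the late 2-cell direction. The zygote comparison did not choose the family and was tested. Igf2bp3 stood at 195, 165, 171, 153 and 214 CPM in the WT zygotes and at 295, 216, 221, 257, 264 and 220 CPM in the R442Q zygotes. The groups did not overlap, although the highest WT and the lowest R442Q embryo lay close together. The means were 180 ± 24.6 CPM (SD, n = 5) and 246 ± 31.7 CPM (SD, n = 6). The difference after scaling was 0.58 ± 0.13 (log2 ± SE), or 1.49-fold, with an adjusted p of 0.0083 by edgeR's quasi-likelihood test over all tested genes. By FPKM the level was 48.2 ± 8.99 in WT and 72.9 ± 11.1 in R442Q zygotes, and the lowest R442Q value (65.0) was again above the highest WT value (61.3). Over 20 alternative settings the adjusted p ranged from 5.39e-04 to 0.0750, and the call was lost in the model that joined both stages (adjusted p = 0.0750), which shares 1 estimate of the spread between zygotes and late 2-cell embryos.

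The zygote comparison called many genes. Of those tested, 13.2% passed the threshold of an adjusted p of 0.05, 6.3% higher and 6.92% lower in R442Q, and 2.54% had all R442Q values above all WT values. Of the members Igf2bp3 was called and Igf2bp2 was not, and Igf2bp1 is described apart for its low counts. A difference at least as large in size as that of Igf2bp3 was seen in 23.1% of the tested genes.

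Igf2bp1 in zygotes was at a level near the detection limit. The WT zygotes held 2, 0, 1, 5 and 0 counts and the R442Q zygotes 13, 27, 30, 33, 25 and 39 counts. Every R442Q zygote was above every WT zygote, and the 2 WT embryos at 0 have limits of 0.345 and 0.339 CPM, which 3 counts would give. In CPM these are 0.210 ± 0.280 CPM (SD, n = 5) against 3.10 ± 0.757 CPM (SD, n = 6). The fitted difference was 3.96 ± 0.69 (log2 ± SE), and 3.63 to 5.00 when 1 embryo was left out. The gene passed the filter on low counts only through the R442Q embryos, where it is high, so no p is given as support, its fold change carries the prior count, and its values are a description. By FPKM, 5 of the R442Q zygotes had 0.27 to 0.57 and replicate 2 had 2.66, against at most 0.08 in WT; on this scale the gene was under the filter and was not tested.

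Markers of the 2-cell stage, genes of the first wave of embryonic transcription such as the Zscan4 cluster, differed among themselves in zygotes. Of 14 such markers 10 were tested, and 7 were higher in R442Q and 0 lower, several of them near 0 in WT and so tested only through the R442Q embryos. Tcstv1, the most abundant of them (88.8 CPM in WT against 60.1 in R442Q; -0.45 ± 0.22), and Tcstv3 (22.4 against 15.2 CPM; -0.44 ± 0.28) had lower means in R442Q and did not pass. Their summed level was 87.8 to 161 CPM in WT and 98.3 to 395 CPM in R442Q zygotes, and Zscan4f, for example, was at 0.692 ± 0.600 CPM in WT and 16.7 ± 21.4 CPM in R442Q. Of 7 trophectoderm markers tested, 1 was called, Krt18, a keratin gene, at 0.728 ± 0.603 CPM in WT and 5.34 ± 2.16 CPM in R442Q, tested only through the R442Q embryos. Of 3 epiblast markers tested Esrrb was lower (-0.82 ± 0.20, edgeR's quasi-likelihood adjusted p = 0.013, lost in 4 of 20 alternatives), and of 5 primitive endoderm markers tested 1 was called, Pdgfra, at 0.858 ± 0.692 CPM in WT and 3.37 ± 1.28 CPM in R442Q, again tested only through them. Of 12 oocyte and zygote markers 1 was higher and 3 were lower by edgeR (10 of 12 at an unadjusted p under 0.05; 3 to 7 lower when 1 embryo was left out), with a list median of -0.43 against 0.0061 over all genes, and their sum was 10633 to 12629 CPM in WT and 9104 to 12018 CPM in R442Q. The part of these marker differences in the Igf2bp1 and Igf2bp3 results was not tested.

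Igf2bp2, a member known to be stored in the oocyte, did not pass the test in zygotes. It stood at 229, 234, 182, 210 and 179 CPM in WT and at 181, 99.1, 136, 176, 198 and 201 CPM in R442Q zygotes. The groups overlapped, and R442Q replicate 2 was lowest. The means were 207 ± 25.5 and 165 ± 39.8 CPM, and the difference after scaling was -0.20 ± 0.16 (log2 ± SE, edgeR's quasi-likelihood adjusted p = 0.472). The levels by FPKM were 67.1 ± 8.45 and 51.7 ± 12.5.

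**Figure D3:**
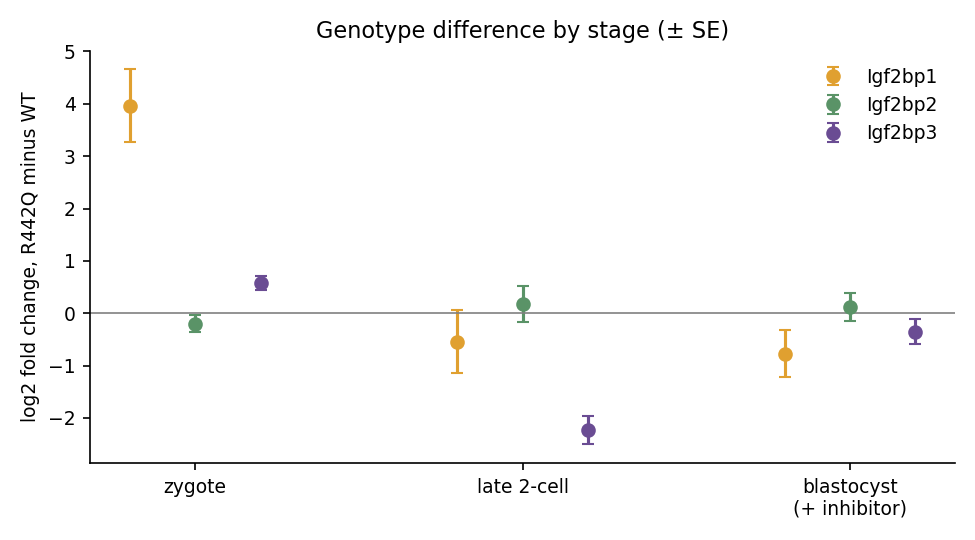
Log2 fold change of each member, R442Q minus WT, with its SE (vertical axis), at the 3 stages; zygotes and late 2-cell embryos were fitted on counts and blastocysts on log2(FPKM + 1). Igf2bp3 is at 0.58 in zygotes and -2.24 at the late 2-cell stage, and Igf2bp2 stays within 0.20 of 0 at all 3 stages.

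At the late 2-cell stage Igf2bp3 was the member by which the family was chosen. Its level was 391, 344, 386 and 391 CPM in the WT embryos and 58.7, 81.4, 90.6, 92.3 and 55.0 CPM in the R442Q embryos. Both groups were tight and far apart. The means were 378 ± 22.8 CPM (SD, n = 4) and 75.6 ± 17.7 CPM (SD, n = 5), and the difference was -2.24 ± 0.27 (log2 ± SE), 4.72-fold lower. Of the 13883 tested genes 319 were as low or lower. At this stage 4.18% of the tested genes passed the threshold, 1.22% higher and 2.95% lower in R442Q, and 8.77% had all R442Q values below all WT values. No reading is drawn from that background, because the contrast chose the gene. Beside it, the 2-cell markers summed to 665 to 3347 CPM in WT and 2099 to 5080 CPM in R442Q, with 0 of 12 called by edgeR (7 at an unadjusted p under 0.05, and 3 called by DESeq2), and the oocyte and zygote markers to 1515 to 3394 and 1700 to 4678 CPM, with 0 of 12 called by edgeR (4 at an unadjusted p under 0.05). Of 8 trophectoderm markers tested 1 was called, Id2, a transcriptional inhibitor, which was higher in R442Q (63.3 ± 25.3 against 250 ± 121 CPM; 2.10 ± 0.42, edgeR's quasi-likelihood adjusted p = 0.016, lost in 6 of 18 alternatives), and the list summed to 153 to 280 and 243 to 520 CPM. Of 6 epiblast and 3 primitive endoderm markers 0 were called by edgeR (1 of each at an unadjusted p under 0.05). Their part in the Igf2bp3 difference was not tested.

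Igf2bp1 varied widely between late 2-cell embryos. It stood at 41.9, 46.5, 28.4 and 61.6 CPM in WT and at 6.73, 16.8, 52.3, 7.87 and 63.4 CPM in R442Q. In R442Q, 3 embryos were below every WT embryo and the other 2 were within or above the WT range. Replicate 5, the highest for Igf2bp1, was the lowest for Igf2bp3. The difference was -0.54 ± 0.60 (log2 ± SE). Igf2bp2 stood at 30.4, 43.8, 63.3 and 50.9 CPM in WT and at 64.3, 43.3, 49.3, 40.6 and 51.3 CPM in R442Q, and the groups overlapped over most of their range. The difference was 0.18 ± 0.34 (log2 ± SE). It was -0.022 when WT replicate 1 was left out and 0.33 when WT replicate 3 was, the extremes over all such fits. For Igf2bp1 the extremes were -1.08 when R442Q replicate 5 was left out and -0.30 when R442Q replicate 1 or 4 was.

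From zygote to late 2-cell embryo the members therefore went in different directions, given here as a description since the late 2-cell values chose the family. In WT, the joint model put the change at 7.62 ± 0.80 (log2 ± SE) for Igf2bp1, -2.20 ± 0.26 for Igf2bp2 and 0.99 ± 0.19 for Igf2bp3. In R442Q the changes were 3.01 ± 0.56, -1.92 ± 0.23 and -1.90 ± 0.18. Igf2bp2 was thus lower at the late 2-cell stage in both genotypes, while Igf2bp3 had a higher level at the late 2-cell stage than in zygotes in WT and a lower one in R442Q by counts. On log2(FPKM + 1) the R442Q change of Igf2bp3 was -0.28 ± 0.22 and the WT change 1.73 ± 0.15. The value for Igf2bp1 starts from counts near 0 and depends on the prior count.

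**Figure D4:**
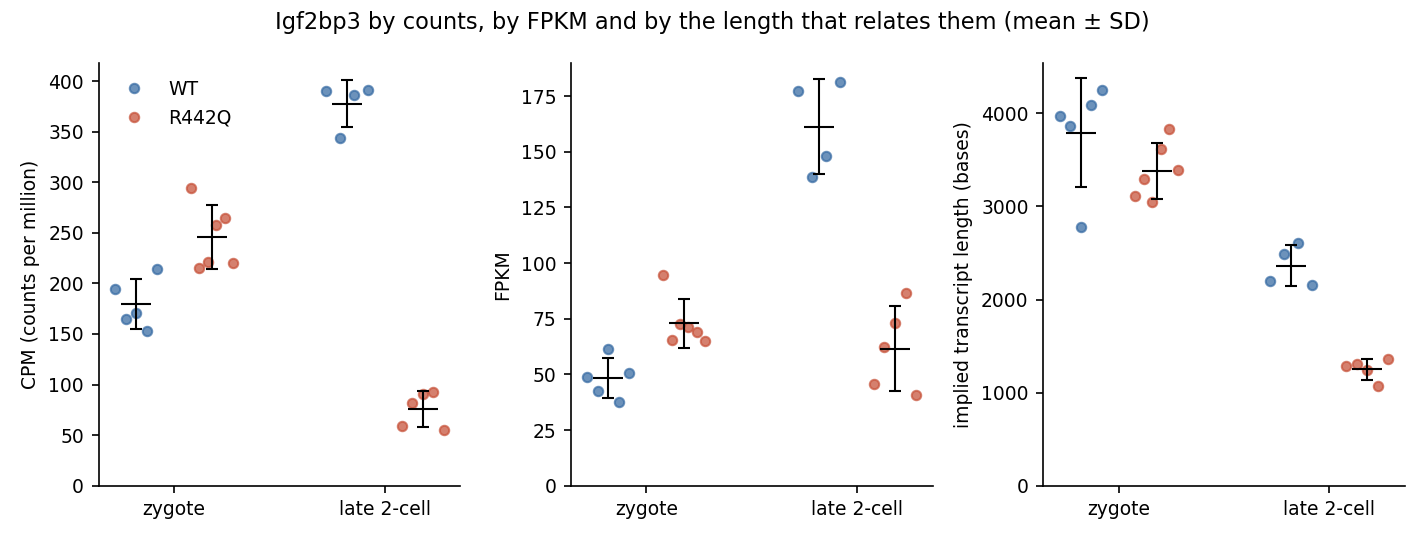
Igf2bp3 in single zygotes and late 2-cell embryos as CPM, as FPKM and as the implied transcript length in bases (linear vertical axes from 0); points are embryos, blue WT and red R442Q, bars mean ± SD. The late 2-cell gap is wider by counts (378 against 75.6) than by FPKM (161 against 61.6), and the implied length of R442Q late 2-cell embryos (1067 to 1358 bases) lies below all others.

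The Igf2bp3 gap at the late 2-cell stage was smaller by FPKM than by counts. FPKM was 177, 138, 148 and 181 in WT and 45.7, 62.1, 73.1, 86.6 and 40.5 in R442Q, with means of 161 ± 21.3 and 61.6 ± 19.1, and limma on log2(FPKM + 1) put the difference at -1.42 ± 0.30. The ratio of counts to FPKM gives the transcript length with which the authors' FPKM was made, here called the implied length, a quantity chosen after these values were seen. On genes with a single annotated transcript the implied length was 0.962 of the annotated length in zygotes (median of 195 genes) and 0.972 in late 2-cell embryos (161 genes).

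For Igf2bp3 the implied length was 3792 ± 584 bases in WT and 3384 ± 301 bases in R442Q zygotes, against 4345 bases for the full coding transcript. These groups overlapped (exact two-sided permutation test, p = 0.216, adjusted over 2 members tested 0.216). The overlap came from WT replicate 3, at 2780 bases. The other WT zygotes were at 3861 to 4252 bases, above all R442Q zygotes (3052 to 3835). In late 2-cell embryos it was 2363 ± 219 bases in WT (2156 to 2610) and 1252 ± 112 bases in R442Q (1067 to 1358). The R442Q embryos were all lower, with a log2 ratio of -0.92, which ranked 61 from the lowest among 5531 genes. A shorter implied length in every R442Q late 2-cell embryo was common, at 29.6% of those 5531 genes, against 0.597% with a longer one; in zygotes the shares were 0.714% and 1.81% of 6723 genes. Which transcripts the authors' program assigned the reads to is not given in the sources used here, and the annotation lists 3 Igf2bp3 transcripts of 711 bases or less besides a retained intron form of 4152 bases.

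Igf2bp2 had a steady implied length. It was 3080 ± 27.3 bases in WT and 3200 ± 110 bases in R442Q zygotes (exact two-sided permutation test, p = 0.0303, adjusted over 2 members tested 0.0606). It was 3195 ± 160 bases in WT and 3021 ± 243 bases in R442Q late 2-cell embryos. For Igf2bp1 it was 1209 to 2263 bases in WT late 2-cell embryos and 1488 to 7871 bases in R442Q ones, which is well under the longest transcript of 8378 bases in all embryos but 1.

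The genes near and across Igf2bp3 gave these values. Malsu1, which assists assembly of the mitochondrial ribosome and overlaps the 3′ end, was at 35.9 ± 16.6 CPM in WT and 39.8 ± 16.0 CPM in R442Q late 2-cell embryos, a difference of 0.28 ± 0.45 (log2 ± SE, edgeR's quasi-likelihood adjusted p = 0.776). Gm18010, within the gene on the other strand, had 0 counts in all zygotes and late 2-cell embryos. Of the genes starting within 500 kb of Igf2bp3, 7 were tested at the late 2-cell stage and 0 passed (also 0 at an unadjusted p under 0.05). In zygotes 10 were tested, and Stk31 was lower in R442Q (-0.80 ± 0.21, adjusted p = 0.021, lost in 2 of 20 alternatives). Near Igf2bp1, 10 were tested at the late 2-cell stage and Calcoco2, an autophagy receptor gene, was lower (-2.07 ± 0.43, adjusted p = 0.018, lost in 3 of 18 alternatives), and 0 of 7 passed in zygotes (0 at an unadjusted p under 0.05). Near Igf2bp2, 0 of 5 passed at the late 2-cell stage (1 at an unadjusted p under 0.05), and in zygotes 1 of 6 did, Ehhadh, a peroxisomal enzyme gene, which was at 0.155 ± 0.223 CPM in WT and 1.95 ± 0.874 CPM in R442Q and was tested only through the R442Q embryos. All are edgeR's quasi-likelihood values adjusted over all tested genes.

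In blastocysts no member passed the test. Igf2bp1 was at 14.8 to 64.5 FPKM (median 28.8) in 7 WT embryos and 4.52 to 48.6 FPKM (median 18.4) in 7 R442Q embryos. The difference was -0.77 ± 0.44 on the log2(FPKM + 1) scale, with a limma adjusted p of 0.762. Igf2bp2 was at 14.2 to 52.5 (median 30.3) and 24.0 to 44.1 (median 34.4), a difference of 0.12 ± 0.27 (limma adjusted p = 0.958). Igf2bp3 was at 37.7 to 64.0 (median 50.8) and 27.1 to 63.3 (median 34.5), a difference of -0.35 ± 0.23 (limma adjusted p = 0.80). In R442Q, 2 embryos were near the top of the WT range for Igf2bp3 and the other 5 were below every WT embryo.

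The blastocyst comparison called 0.00885% of the tested genes, 1 of 11297, so a count of 0 members is near the background. At an unadjusted p under 0.05 limma gave 836 genes (7.4%), again with 0 members. The summed lineage markers ranged widely within both groups, from 4707 to 26253 FPKM in WT and from 1378 to 15898 FPKM in R442Q for trophectoderm, and from 13496 to 35819 and 10185 to 21113 FPKM for epiblast, with 0 markers called by limma (0 and 1 at an unadjusted p under 0.05). In such whole embryos fewer cells of a type and less RNA per cell cannot be told apart.

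**Figure D5:**
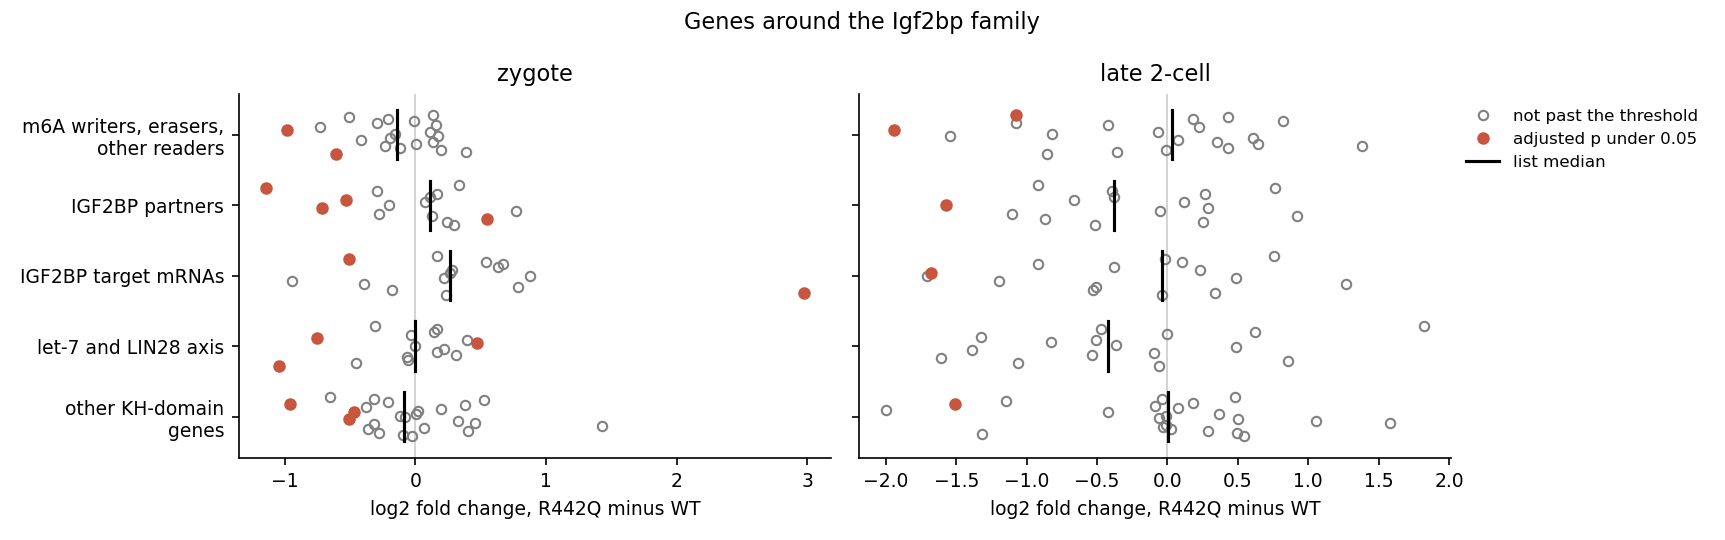
Log2 fold change, R442Q minus WT (horizontal axis), of each tested gene in 5 lists around the family, in zygotes (left) and late 2-cell embryos (right); filled red points passed an adjusted p of 0.05, open points did not, and black bars are list medians. Most points are open, and in late 2-cell embryos every filled point is below 0.

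Genes that work with or on IGF2BP proteins were described by 5 lists, which share a few genes such as Fmr1 and Hmga2. Over the 5 lists 14 of 87 tested genes were called in zygotes, where 13.2% of all tested genes were. In late 2-cell embryos 5 of 86 were, against 4.18%, so with directions pooled both counts lie near the background. By direction, most of the zygote calls and all of the late 2-cell calls were lower in R442Q. Over all tested genes 6.3% were higher and 6.92% lower in zygotes, and 1.22% and 2.95% in late 2-cell embryos. The 14 include Myc, which was tested only through the R442Q embryos. Of 20 m6A writers, erasers and other readers, 2 were lower and 0 higher in R442Q zygotes, with a list median of -0.14 (log2) against 0.0061 over all tested genes. These were Zc3h13, a scaffold of the m6A writer complex (77.9 ± 11.9 against 47.0 ± 6.22 CPM; -0.61 ± 0.13, adjusted p = 0.0069), and Mettl16, an RNA methyltransferase (17.5 ± 4.44 against 8.10 ± 3.49 CPM; -0.98 ± 0.27, adjusted p = 0.024). In late 2-cell embryos 2 of 20 were lower and 0 higher, with a median of 0.032 against 0.071. Mettl16 was again lower (-1.94 ± 0.52, adjusted p = 0.050, just under the threshold), and so was Alkbh5, an m6A eraser (173 ± 27.9 against 77.5 ± 18.9 CPM; -1.08 ± 0.28, adjusted p = 0.045). The catalytic writer Mettl3 was at 85.4 CPM in WT and 85.1 CPM in R442Q zygotes, and the reader Ythdf2 at 274 and 251 CPM in late 2-cell embryos. All p-values of these lists are from edgeR's quasi-likelihood test, adjusted over all genes tested at that stage.

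Of 15 genes whose proteins are found in IGF2BP ribonucleoprotein granules, 1 was higher and 3 were lower in R442Q zygotes (list median 0.11). Matr3, a nuclear matrix RNA-binding gene, was lower (238 ± 62.4 against 133 ± 21.7 CPM; -0.71 ± 0.15, adjusted p = 0.0042), as were Ddx6, an RNA helicase of mRNA storage and decay (-1.15 ± 0.30, adjusted p = 0.018), and Hnrnpu (-0.53 ± 0.15, adjusted p = 0.028). Strap, an RNA-binding WD repeat gene, was higher (111 ± 16.5 against 150 ± 19.7 CPM; 0.55 ± 0.14, adjusted p = 0.014). In late 2-cell embryos the list median was -0.38 against 0.071 over all tested genes.

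Of 19 known IGF2BP target mRNAs, 15 were tested in zygotes, where 1 was higher and 1 lower (list median 0.26). When 1 embryo was left out, 1 to 3 were higher and 1 to 2 lower. The higher one, Myc, the growth regulator whose mRNA IGF2BP proteins stabilise, was at 1.34 ± 1.09 CPM in WT and 9.85 ± 6.06 CPM in R442Q and was tested only through the R442Q embryos, so no p is given as support. Btrc, a ubiquitin ligase subunit, was lower (154 ± 10.04 against 99.7 ± 16.0 CPM; -0.51 ± 0.11, adjusted p = 0.0067). In late 2-cell embryos Myc was at 30.3 CPM in WT and 19.6 CPM in R442Q and did not pass (adjusted p = 0.496). There 1 of 15 was lower, Eef2, a translation elongation factor (154 ± 66.2 against 44.5 ± 15.3 CPM; -1.68 ± 0.38, adjusted p = 0.025), with a list median of -0.043. Actb, whose mRNA is localised by IGF2BP1, was at 257 and 400 CPM and did not pass (adjusted p = 0.185). In blastocysts 0 of 15 tested targets passed by limma (3 at an unadjusted p under 0.05). Myc was among these 3, at 34.6 ± 29.0 FPKM in WT and 8.84 ± 10.5 FPKM in R442Q (-2.54 ± 0.78, limma adjusted p = 0.284).

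In the let-7 and LIN28 list, 1 of 15 tested genes was higher and 2 were lower in R442Q zygotes (median -7.6e-04). Xpo5, which exports microRNA precursors (38.5 ± 5.51 against 17.1 ± 2.58 CPM; -1.05 ± 0.16, adjusted p = 7.4e-04), and Dicer1, which cuts them (360 ± 73.8 against 196 ± 28.4 CPM; -0.75 ± 0.13, adjusted p = 0.0013), were lower. Drosha, which makes the precursors in the nucleus, was higher (0.47 ± 0.15, adjusted p = 0.046). In late 2-cell embryos 0 of 16 passed by edgeR (median -0.42, 6 of them at an unadjusted p under 0.05, and 2 called lower by DESeq2). Lin28a, whose protein blocks let-7 maturation, was at 29.7 CPM in WT and 10.6 CPM in R442Q (-1.39 ± 0.44, adjusted p = 0.085).

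Other genes with KH domains, the RNA-binding fold that IGF2BP proteins use, showed 3 lower and 0 higher of 24 tested in zygotes (median -0.088). Fubp1, a regulator of Myc transcription, was lower in R442Q at both stages. It was at 80.6 ± 14.4 against 38.2 ± 4.70 CPM in zygotes (-0.96 ± 0.14, adjusted p = 6.2e-04) and at 149 ± 41.0 against 49.2 ± 8.21 CPM in late 2-cell embryos (-1.51 ± 0.30, adjusted p = 0.015), where it was the only one of 22 to pass (list median 0.0071). Hnrnpk (-0.47 ± 0.12, adjusted p = 0.018) and Krr1 (-0.51 ± 0.15, adjusted p = 0.029) were lower in zygotes. In blastocysts 0 of the 80 tested genes of the 5 lists passed with limma (8 at an unadjusted p under 0.05), and the list medians were -0.28 to -0.12 against -0.097 over all genes. Among the zygote calls of these lists, that of Fubp1 held under all alternatives run, while Drosha was lost in 14 of 20, Hnrnpu in 8, Krr1 in 6, Ddx6 and Hnrnpk in 3 each, Mettl16 and Zc3h13 in 2 each, and Matr3, Strap, Btrc, Xpo5 and Dicer1 in 1 each. Among the late 2-cell calls, Alkbh5 was lost in 14 of 18 alternatives, Mettl16 in 12, Eef2 in 8 and Fubp1 in 4.

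The genes whose level was most like each member over all 34 embryos were found among 12273 genes by Pearson's r of log2(FPKM + 1). For Igf2bp1 they were Ttf1 (0.93), Ier2 (0.93), Fbl (0.92), Msto1 (0.92) and Necap1 (0.92). For Igf2bp2 they were Cox10 (0.92), Elp2 (0.89), Gm15501 (0.89), Mrpl48 (0.88) and Vta1 (0.88). For Igf2bp3 the likeness was lower, with Ciita (0.79), Sp6 (0.78), Gm11400 (0.77), Usp20 (0.76) and Gm16184 (0.76). The points share stage, genotype and library, and these values are a description. Within the 11 zygotes, 9 late 2-cell embryos and 14 blastocysts Ier2 had 0.81, 0.75 and 0.71 with Igf2bp1, and Ttf1 had 0.14, 0.84 and 0.68. Ciita had 0.22 in zygotes and 0.37 in blastocysts with Igf2bp3; no value is given for the late 2-cell embryos, where Igf2bp3 falls into 2 separate genotype clusters.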

How the data were processed

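Counts and FPKM of single embryos were used as deposited. Per the labels' protocols, cDNA was made with SMART-seq2, cut with Tn5 and sequenced as Nextera libraries on a HiSeq X-10. The submitters' processing notes name RSEM and mm10, without a version or a role; strand use and annotation are not given in the sources used here. The authors' zygote and late 2-cell tables hold estimated counts per gene symbol (90.7% and 89.9% of values are whole), and the deposited FPKM tables cover all 3 stages.

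Counts were rounded and fitted per stage in R 4.3.3 with edgeR 4.0.16 (filterByExpr with a minimum count of 10, TMM scaling, quasi-likelihood test). Blastocyst FPKM were tested with limma 3.58.1 on log2(FPKM + 1), a scale that understates changes of low genes, for genes reaching FPKM 1 in 7 or more of 14 embryos. P-values were adjusted by Benjamini-Hochberg over all genes tested, with a threshold of 0.05. CPM divide counts by the library total. The implied length is counts × 10 to the ninth / (FPKM × library total). Of the symbols, 98.4% (zygote, late 2-cell) and 92.1% (blastocyst) occur in GENCODE M21 (GRCm38, the build mm10 also names), which gave positions and 3′ UTRs; microRNAs are RefSeq's. Limits from 0 or few counts cover counting error only, since reads carry no molecular identifiers.

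Genes named were the members, up to 3 genes per list and stage past the threshold by smallest p, and the 5 genes most like each member (among genes with FPKM of at least 5 in at least 4 embryos); others, such as Malsu1, Lin28a, Mettl3, Ythdf2 and Actb, were named after their values were seen. A gene of these lists is not reported here. The members and lists were chosen with earlier results of these data known. Same-numbered embryos of the 2 genotypes did not deviate together, by the titles' numbers or by the other numbers in the descriptions, so numbers were not taken as pairs. No 2 embryos of a group had counts that agreed within sampling noise. Alternatives were RLE scaling, DESeq2 1.42.0, limma on FPKM, no filter, other pseudocounts, a joint model, a length and GC trend, a replicate block, embryo weights and leaving out each embryo.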

Additional observations from a re-analysis of the deposited data

Results flagged for a closer look

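In 41 sets of values, 1 per member, group and quantity, the highest and lowest embryo were set against the rest by Dixon's gap criterion; chance flags about 1 set in 20. Igf2bp1 in R442Q zygote replicate 2 was at 2.66 FPKM, far above the next at 0.57. By counts this embryo was at 3.68 CPM, below replicate 4 at 3.84 CPM, and its implied length was 1383 bases. The implied length of Igf2bp1 in R442Q late 2-cell replicate 4 was 7871 bases, against 2533 in the next embryo. The implied length of Igf2bp3 in WT zygote replicate 3 was 2780 bases, below the next at 3861. Igf2bp3 in R442Q zygote replicate 1 was at 94.7 FPKM, above the next at 72.5. Igf2bp3 in WT late 2-cell replicate 2 was at 344 CPM, below the next at 386.

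The genotype difference of Igf2bp3 had opposite directions at 2 stages. Every R442Q zygote was above the WT mean and every R442Q late 2-cell embryo was below it, and the late 2-cell log2 difference minus the zygote difference was -2.81. This contrast between stages was not tested, because the late 2-cell values chose the gene.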

How the results depend on the processing

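Igf2bp3 and Igf2bp2 in zygotes kept their side of the threshold under the alternatives run, except that Igf2bp3 did not pass in the joint model (0.61, adjusted p = 0.0750, edgeR), where the count of zygote calls was 270; leaving out 1 embryo gave 1125 to 1718 calls. With the replicate number as a block, Igf2bp3 was at 0.61 in zygotes (edgeR adjusted p = 0.0098) and Igf2bp1, a description, at 4.17, late 2-cell Igf2bp3 was at -2.16 and Igf2bp1 at -1.52, and the block changed neither the Igf2bp3 nor the Igf2bp2 zygote call; the titles' numbers were not taken as pairs, since of 16 same-numbered pairs 4 correlated over 0.1 and 3 correlated best with their own number. The descriptions number the zygotes and late 2-cell embryos differently; by those numbers 0 of 8 pairs correlated over 0.1 and 2 correlated best with their own, and a replicate block on them, chosen after seeing the data, gave 1004 zygote and 0 late 2-cell calls (edgeR; 2158 at an unadjusted p under 0.05), zygote Igf2bp3 at 0.50 (adjusted p = 0.043), and late 2-cell Igf2bp3 at -2.17 and Igf2bp1 at -2.22. The late 2-cell count of calls, 580, was 1664 by DESeq2, 889 without a filter, 2507 in the joint model, 126 with the length and GC trend removed, 58 with the block and 8 with both, and 142 to 891 when 1 embryo was left out (142 without WT replicate 2, 209 without WT replicate 4, 283 without WT replicate 3, 351 without WT replicate 1, 372 without R442Q replicate 2 and 891 without R442Q replicate 3). Late 2-cell Igf2bp3 was -1.42 by limma on FPKM, -1.96 with the length and GC trend removed and -1.88 with that and the block, and -2.32 to -2.14 when 1 embryo was left out; Igf2bp2 there was 0.73 and 0.70 with the trend removed, without and with the block. Removing the trend put the median log2 difference of all late 2-cell genes at 0.16 against 0.071 with it, and the zygote median was 0.16 without a filter and 0.11 in the joint model against 0.0061. The blastocyst count of 1 call was 0 without a filter, 5 with TMM scaling, 0 with the block, 5 with embryo weights and 0 to 30 when 1 embryo was left out (30 without WT replicate 7), and Igf2bp2 turned to -0.060 without WT replicate 2 (range -0.060 to 0.24). On log2(FPKM + 1) the stage changes were 4.71 for Igf2bp1 and 1.73 for Igf2bp3 in WT, and -1.56 for Igf2bp2 and -0.28 for Igf2bp3 in R442Q; leaving out 1 embryo gave 7.15 to 8.64 for Igf2bp1 and 0.80 to 1.07 for Igf2bp3 in WT. The cause of these shifts was not tested. At 7183632 counts or more per zygote, Igf2bp1 in WT lies within a few counts of 0, which limits its fold change.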
